A study of Mus musculus with 21 samples.

Results

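The genes described here are 10 that make and load MHC class I, the cell-surface molecule that shows fragments of a cell's own proteins to CD8+ T cells: Nlrc5, H2-K1, H2-D1, B2m, Tap1, Tap2, Tapbp, Psmb8, Psmb9 and Psmb10. They were taken by symbol from a table of RPKM values, and all 10 of 10 were present among its 11628 genes. RNA was measured in 21 libraries of bone marrow progenitors sorted by flow cytometry. The study set mice with a germline mutation of Etv6, a repressor of the ETS family of transcription factors, against wild-type mice. The mutants are homozygous, labelled ETV6 mt/mt, and the allele is given as h.P214L; neither group is labelled with another allele or an agent, and the labels do not give the strain. Each genotype was sampled in haematopoietic stem cells (HSC; negative for lineage markers, FLK2 and CD38, positive for cKit, Sca1 and CD150), in multipotent progenitors called MPP4 (lineage-negative, with cKit, Sca1 and FLK2) and in common lymphoid progenitors (CLP; lineage-negative, with IL7 and Flk2, low in cKit and Sca1). Every population had 4 mutant and 3 wild-type libraries, from animals of 10 or 12 weeks, with the library numbered 2 labelled male and the others female. Because the alteration is a point mutation, the level of Etv6 RNA does not check the genotype; it lay at 94.2 to 110.6 RPKM in mutant HSC against 108.5 to 120.6 RPKM in wild-type HSC, and did not pass the test in any population.

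As background, proteasomes cut cell proteins into peptides, the TAP transporter moves those peptides into the endoplasmic reticulum, and there they are loaded onto a class I heavy chain held by beta-2-microglobulin. Immune cells and interferon-treated cells swap 3 catalytic proteasome subunits for inducible ones, which gives the immunoproteasome. NLRC5 is the transactivator that binds class I promoters together with other factors, and blood stem and progenitor cells are known to carry class I on their surface. H2-K1 and H2-D1 encode classical heavy chains and B2m the light chain, Tap1 and Tap2 the transporter's subunits, and Tapbp tapasin, which bridges the transporter and the empty class I molecule. Psmb8, Psmb9 and Psmb10 encode the inducible subunits that take the places of those from Psmb5, Psmb6 and Psmb7.

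The members lie on 3 chromosomes of the mouse build GRCm38.p6, to which the gene positions and sequences below belong (RefSeq). B2m (Entrez gene 12010) is at chr2:122147687-122153082, Nlrc5 (434341) at chr8:94434335-94527272 and Psmb10 (19171) at chr8:105935728-105938392. The other 7 lie in the MHC on chromosome 17. From the lower coordinate these are Tapbp (21356) at 33919478-33929290, H2-K1 (14972) at 33996012-34000619, Psmb9 (16912) at 34182030-34187330, Tap1 (21354) at 34187556-34197225, Psmb8 (16913) at 34198195-34201454, Tap2 (21355) at 34204479-34216321 and H2-D1 (14964) at 35263094-35267497. Psmb9, Tap1, Psmb8 and Tap2 sit side by side in a block of 34.3 kb. Psmb9 and Tap1 are read away from each other from starts with 225 bases between them, so that this stretch is the upstream sequence of both. It is shown because both genes had the same pattern over the populations, and the 250 bases before the starts of B2m, H2-K1 and H2-D1 are shown because these 3 followed another pattern; for H2-K1 the start used by the sequence table lies inside the gene's full extent, and so does its window. Letters are those of the reference genome; class I genes vary between mouse strains. Capitals mark matches, on either strand, to 6 short motifs searched in the windows: AANNGAAA, the core of an interferon regulatory factor site; GGGATTCCC, a kappaB element; TGACG, the core of a cAMP response element; CCAAT, the CCAAT box; CCGGAAGT, an ETS site; and TTCNNNGAA, a gamma-activated site.
Psmb9 to Tap1, chr17:34187331-34187555, plus strand, the strand of Tap1: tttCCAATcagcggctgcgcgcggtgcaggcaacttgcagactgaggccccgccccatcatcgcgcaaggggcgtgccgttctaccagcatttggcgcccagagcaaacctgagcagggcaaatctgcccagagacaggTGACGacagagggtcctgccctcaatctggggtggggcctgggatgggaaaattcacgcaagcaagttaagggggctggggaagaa
B2m, chr2:122147437-122147686, plus strand: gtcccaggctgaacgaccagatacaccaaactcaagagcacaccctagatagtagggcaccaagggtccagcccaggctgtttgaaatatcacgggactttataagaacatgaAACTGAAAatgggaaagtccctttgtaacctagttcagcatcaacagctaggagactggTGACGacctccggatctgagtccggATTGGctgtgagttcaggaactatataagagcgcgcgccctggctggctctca
H2-K1, chr17:34000348-34000597, minus strand: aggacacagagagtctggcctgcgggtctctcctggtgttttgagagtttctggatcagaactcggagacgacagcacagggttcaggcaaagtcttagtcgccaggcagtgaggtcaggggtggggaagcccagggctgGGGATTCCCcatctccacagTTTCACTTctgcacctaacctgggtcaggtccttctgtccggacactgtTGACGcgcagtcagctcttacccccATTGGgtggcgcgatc
H2-D1, chr17:35262844-35263093, plus strand: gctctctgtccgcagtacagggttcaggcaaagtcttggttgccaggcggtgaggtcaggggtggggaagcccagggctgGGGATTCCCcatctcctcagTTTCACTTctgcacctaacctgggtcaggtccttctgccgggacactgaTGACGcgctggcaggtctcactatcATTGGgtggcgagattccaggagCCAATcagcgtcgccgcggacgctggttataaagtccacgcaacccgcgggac

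Windows of 250 bases before the start were matched for 8 of the 10 members, and no 2 matches overlapped in them. The interferon regulatory factor core occurred in 3 of the 8, B2m, H2-K1 and H2-D1, against 21.3% of 32851 such windows in the genome. The kappaB element occurred in 2, H2-K1 and H2-D1, against 0.301%. TGACG occurred in 5 windows against 17.8%, CCAAT in 6 against 33.8% (the windows of Psmb9 and Tap1 share 225 bases, so 1 TGACG and 1 CCAAT site are each counted in both), the ETS site in 0 against 2.88%, and the gamma-activated site in 1, that of Psmb8, against 7.02%. In H2-K1 and H2-D1 the kappaB element, the interferon core, TGACG and the CCAAT box came in the same order, and 170 of 190 aligned bases were identical (89.5%). A match describes letters and is not evidence of binding. Nlrc5 and Tap2 have no window in the sequences used here.

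Values are RPKM, reads scaled to gene length and to library size, so levels can be set beside each other between genes. They summed to between 337818 and 376135 per library; depth is unknown, since no counts were recovered, and no counting interval can be given. Marker lists set HSC and CLP apart, although each list also holds genes outside the sorting gate. The 6 stem cell genes (Slamf1, Kit, Ly6a, Procr, Hlf, Mecom) summed to 528 to 564 RPKM in mutant HSC and 543 to 582 RPKM in wild-type HSC. Over the CLP groups their sum was 55.2 to 84.1 RPKM. The 6 CLP genes (Il7r, Flt3, Kit, Ly6a, Ly6d, Rag1) summed to 923 to 1651 RPKM in mutant CLP and 1157 to 1651 RPKM in wild-type CLP. Over the HSC groups their sum was 400.2 to 447 RPKM. This sum mixes 2 directions, since CLP is sorted as low in cKit (Kit) and Sca1 (Ly6a). In mutant CLP against mutant HSC, Kit and Ly6a were lower, with log2 differences of -2.97 and -1.68. Il7r, Flt3, Ly6d and Rag1 were higher. The 5 MPP4 genes (Flt3, Kit, Ly6a, Cd48, Dntt) did not single out MPP4. They summed to 1210 to 1821 RPKM over the MPP4 groups, but to 2089 to 2503 RPKM in mutant CLP and 2220 to 2283 RPKM in wild-type CLP. Wild-type HSC library 2 stood apart in neutrophil granule genes (8 of 9 in the table, none at 0 throughout), with a sum of 1360.3 RPKM against 163 and 171 RPKM in the other wild-type HSC libraries, and so did mutant MPP4 library 2, with 2194 RPKM against 732 to 954 RPKM in the other mutant MPP4 libraries; results that rest on either are also given without it. In sorted bulk RNA, fewer cells of a type and less RNA per cell cannot be told apart. The labels number the libraries but do not say which came from which mouse, so p-values measure the spread between these libraries, which may be technical in part.

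Of the 10 members, 4 rose and 5 fell between HSC and CLP in both genotypes, and Nlrc5 was called lower in mutants and not in wild type, a gap between genotypes that was not itself called. RNA for both transporter subunits and for 2 inducible proteasome subunits, Tap1, Tap2, Psmb8 and Psmb9, rose, and in CLP reached 1.61 to 1.94 times the HSC level in mutants and 1.63 to 2.01 times in wild type. The heavy chains H2-K1 and H2-D1, B2m, Tapbp and Psmb10 fell from HSC to CLP, to 0.626 to 0.817 times the HSC level in mutants and 0.671 to 0.817 times in wild type. Under median-ratio scaling the calls of B2m in both genotypes and of Tapbp in wild type were lost. Between genotypes no member passed the test in any population, although 9 of 10 had a negative difference in each. Levels were compared with limma on log2(RPKM + 1) in all 21 libraries, and a call means an adjusted p (Benjamini-Hochberg) under 0.05 over the 11496 genes that reached 1 RPKM in at least 3 libraries. All 10 members passed that filter. Every difference below is on this log2 scale, every adjusted p comes from this limma fit, and comparisons between populations of 1 genotype share libraries, since each population enters 2 of them.

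**Figure D1:**
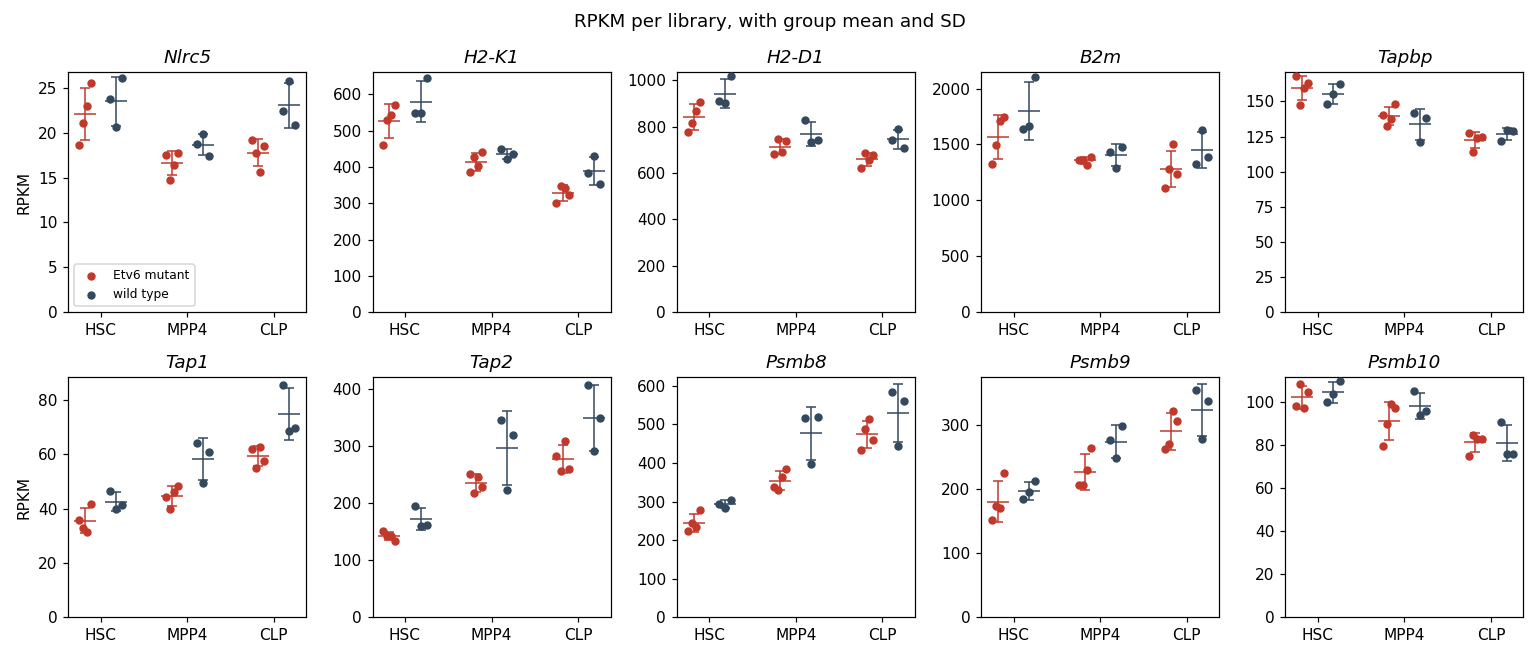
RPKM of each member (vertical axes, from 0) in every library by population, mutant (red) left of wild type (dark blue); points are libraries, and the horizontal mark and bar give the group mean ± SD (n = 4 mutant, n = 3 wild type). Tap1, Tap2, Psmb8 and Psmb9 climb from HSC to CLP in both genotypes, whereas H2-K1 averages 328 RPKM in mutant CLP and 389 RPKM in wild-type CLP, against 526 RPKM in mutant HSC and 581 RPKM in wild-type HSC.

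The members spanned a wide range of levels. B2m ranked 2nd of all 11628 genes by its mean over the libraries, 1466 RPKM, and H2-D1 ranked 12th at 773 RPKM. H2-K1 averaged 442 RPKM, Psmb8 390.3 RPKM, Psmb9 247 RPKM, Tap2 242 RPKM, Tapbp 139.7 RPKM, Psmb10 92.7 RPKM, Tap1 51.6 RPKM and Nlrc5 20.1 RPKM. In every group B2m was highest, H2-D1 next and Nlrc5 lowest, with no overlap of these 3 with their neighbours in the order. The middle of the order changed: ranges of Tap2, Psmb9 and Tapbp overlapped in HSC, where Tap2 averaged 142 RPKM in mutants and 173 RPKM in wild type. Psmb8 lay above H2-K1 in both CLP groups and above it, with overlapping ranges, in wild-type MPP4, while H2-K1 was the higher in HSC.

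Nlrc5, the transactivator, was low and changed least regularly. It had 18.7, 21.1, 23.02 and 25.6 RPKM in the mutant HSC libraries, against 23.7, 20.7 and 26.1 RPKM in the wild-type ones. It had 17.5, 14.8, 16.4 and 17.7 RPKM in the mutant MPP4 libraries, against 18.7, 19.8 and 17.4 RPKM in the wild-type ones. It had 19.2, 17.7, 15.7 and 18.5 RPKM in the mutant CLP libraries, against 22.5, 25.8 and 20.9 RPKM in the wild-type ones. Mutant CLP lay wholly below wild-type CLP, whereas the genotypes overlapped in HSC and MPP4. Nlrc5 fell in MPP4 relative to HSC, by -0.39 (95% interval -0.60 to -0.18, adjusted p = 0.0043) in mutants and -0.31 (95% interval -0.56 to -0.07, adjusted p = 0.0386) in wild type. The wild-type call is weak: it was lost without HSC library 1 or 3 or MPP4 library 1 or 3 (adjusted p of 0.082, 0.167, 0.0772 and 0.13), under median-ratio scaling (0.087), under quantile normalization (0.0601) and with library weights (0.075). In CLP relative to HSC, the difference was -0.29 (95% interval -0.50 to -0.08, adjusted p = 0.017) in mutants, which passed, and -0.03 (95% interval -0.27 to 0.22, adjusted p = 0.873) in wild type, which did not and turned positive under both other scalings (0.08 and 0.01). The mutant call went to an adjusted p of 0.0748 without HSC library 4, 0.0641 without CLP library 3, 0.134 under median-ratio scaling and 0.0623 under quantile normalization. The difference of this step between mutants and wild type, -0.27, was not called.

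H2-K1 and H2-D1, the heavy chains, were highest in HSC. H2-K1 had 460.4, 529, 545 and 571 RPKM in the mutant HSC libraries, against 548, 548 and 645 RPKM in the wild-type ones. It had 388, 426, 401 and 442 RPKM in the mutant MPP4 libraries, against 449, 421 and 436 RPKM in the wild-type ones. It had 301, 347, 343 and 323 RPKM in the mutant CLP libraries, against 385, 429.6 and 353 RPKM in the wild-type ones. Every HSC library lay above every MPP4 and CLP library of its genotype, and mutant CLP lay below wild-type CLP with no overlap. H2-K1 fell in MPP4 relative to HSC by -0.34 (95% interval -0.51 to -0.17, adjusted p = 0.0025) in mutants and -0.41 (95% interval -0.61 to -0.21, adjusted p = 0.00181) in wild type. Between CLP and MPP4 the difference was -0.34 (95% interval -0.51 to -0.16, adjusted p = 0.00489) in mutants, which passed, and -0.16 (95% interval -0.36 to 0.04, adjusted p = 0.319) in wild type, which did not. From HSC to CLP the difference was -0.68 (95% interval -0.85 to -0.50, adjusted p = 6.79e-07) in mutants and -0.58 (95% interval -0.78 to -0.38, adjusted p = 4.13e-05) in wild type, and these calls held in every alternative run.

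H2-D1 had 777, 816, 869 and 906 RPKM in the mutant HSC libraries, against 909, 903 and 1016 RPKM in the wild-type ones. It had 683, 747, 688 and 737 RPKM in the mutant MPP4 libraries, against 828, 735 and 742 RPKM in the wild-type ones. It had 622, 687, 654 and 676 RPKM in the mutant CLP libraries, against 742, 789.6 and 707 RPKM in the wild-type ones. HSC again lay above MPP4 and CLP of the same genotype, and mutant libraries overlapped with wild-type ones in HSC and MPP4 and lay wholly below them in CLP. The difference from HSC was -0.24 (95% interval -0.39 to -0.09, adjusted p = 0.0134) in mutant MPP4 and -0.29 (95% interval -0.47 to -0.12, adjusted p = 0.00835) in wild-type MPP4. In CLP it was -0.35 (95% interval -0.50 to -0.20, adjusted p = 0.000349) in mutants and -0.34 (95% interval -0.51 to -0.16, adjusted p = 0.00223) in wild type. Without mutant HSC library 4 the mutant MPP4 call went to an adjusted p of 0.0515. Both genes share sequence with other genes. Of 50-base windows of the longest protein-coding transcript, 8.79% for H2-K1 and 14.3% for H2-D1 also occur in transcripts of other genes. These other genes number 24 for H2-K1 and 103 for H2-D1, and class I genes shared the most windows. Reads may thus have been split between genes.

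B2m, the light chain, had 1325, 1499, 1710.3 and 1742 RPKM in the mutant HSC libraries, against 1642, 1663 and 2100.4 RPKM in the wild-type ones. It had 1360.2, 1359.6, 1320.5 and 1391 RPKM in the mutant MPP4 libraries, against 1437, 1291 and 1479 RPKM in the wild-type ones. It had 1112, 1277, 1503 and 1233 RPKM in the mutant CLP libraries, against 1322, 1630.4 and 1392 RPKM in the wild-type ones. Genotypes overlapped in every population, and library 3 was the highest of wild-type HSC. B2m fell in wild-type MPP4 by -0.35 (95% interval -0.62 to -0.09, adjusted p = 0.0335), while the mutant MPP4 difference of -0.20 (95% interval -0.43 to 0.03, adjusted p = 0.168) did not pass. In CLP relative to HSC it fell by -0.29 (95% interval -0.52 to -0.06, adjusted p = 0.0298) in mutants and -0.31 (95% interval -0.58 to -0.04, adjusted p = 0.0483) in wild type. Each of these 3 calls is weak: wild-type MPP4 lost it without HSC library 3 or MPP4 library 1 or 2 (adjusted p of 0.174, 0.0583 and 0.125), wild-type CLP without HSC library 3 or CLP library 1 or 3 (0.231, 0.168 and 0.117), and mutant CLP without HSC library 3 or 4 or CLP library 1, 2 or 4 (0.091, 0.0967, 0.104, 0.0534 and 0.0641). All 3 were also lost under median-ratio scaling.

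The balance of these chains shifted a little. H2-K1 made up 38.4% ± 0.882 of the summed RPKM of H2-K1 and H2-D1 in mutant HSC and 38.1% ± 0.651 in wild-type HSC. It made up 36.7% ± 0.587 in mutant MPP4 and 36.2% ± 0.943 in wild-type MPP4, then 33.2% ± 0.928 in mutant CLP and 34.2% ± 0.975 in wild-type CLP (SD, n = 4 mutant and n = 3 wild type). The share was thus lower at each later population in both genotypes, and the genotypes differed by about the SD between libraries. B2m per unit of the summed heavy chains was 1.14 ± 0.0625 in mutant HSC and 1.18 ± 0.0743 in wild-type HSC, 1.21 ± 0.049 in mutant MPP4 and 1.17 ± 0.0778 in wild-type MPP4, and 1.30 ± 0.142 in mutant CLP and 1.27 ± 0.0883 in wild-type CLP. These ratios were described and not tested.

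Tap1, the smaller of the transporter pair by level, rose at both steps. It had 35.8, 33.01, 31.5 and 41.8 RPKM in the mutant HSC libraries, against 46.4, 40.00 and 41.3 RPKM in the wild-type ones. It had 44.4, 39.9, 46.2 and 48.4 RPKM in the mutant MPP4 libraries, against 64.1, 49.3 and 60.96 RPKM in the wild-type ones. It had 61.8, 54.97, 62.8 and 57.6 RPKM in the mutant CLP libraries, against 85.6, 68.5 and 69.8 RPKM in the wild-type ones. Mutants lay wholly below wild type in MPP4 and CLP, and in HSC mutant library 4 overlapped the wild-type range. Tap1 was higher in MPP4 than in HSC by 0.33 (95% interval 0.12 to 0.54, adjusted p = 0.0129) in mutants and 0.43 (95% interval 0.19 to 0.68, adjusted p = 0.00518) in wild type, and higher in CLP than in MPP4 by 0.40 (95% interval 0.19 to 0.61, adjusted p = 0.00548) in mutants and 0.36 (95% interval 0.12 to 0.60, adjusted p = 0.0465) in wild type. Without mutant HSC library 3 the mutant MPP4 call went to an adjusted p of 0.0512, and the wild-type step from MPP4 to CLP was lost without MPP4 library 2 or 3 or CLP library 1 or 3 (0.256, 0.0626, 0.213 and 0.0553). The whole span from HSC to CLP was 0.73 (95% interval 0.52 to 0.94, adjusted p = 3.14e-06) in mutants and 0.79 (95% interval 0.55 to 1.03, adjusted p = 9.13e-06) in wild type.

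Tap2 had the steepest climb from HSC to MPP4 of all members. It had 151, 142, 143 and 134 RPKM in the mutant HSC libraries, against 196, 161 and 162 RPKM in the wild-type ones. It had 252, 218, 246 and 228 RPKM in the mutant MPP4 libraries, against 346, 224 and 320.3 RPKM in the wild-type ones. It had 283, 256, 309 and 260.2 RPKM in the mutant CLP libraries, against 408, 292 and 350.0 RPKM in the wild-type ones. HSC did not overlap MPP4 or CLP in either genotype, mutant HSC lay wholly below wild-type HSC, and wild-type MPP4 library 2 fell within the mutant MPP4 range. The rise from HSC to MPP4 was 0.72 (95% interval 0.48 to 0.97, adjusted p = 5.91e-05) in mutants and 0.76 (95% interval 0.47 to 1.04, adjusted p = 0.000183) in wild type. From MPP4 to CLP the differences of 0.23 (95% interval -0.02 to 0.48, adjusted p = 0.177) in mutants and 0.25 (95% interval -0.04 to 0.54, adjusted p = 0.289) in wild type did not pass. With the replicate number within a genotype as a block, which takes a number to be a mouse, both passed (adjusted p = 0.0199 in mutants and 0.042 in wild type). Over the whole span Tap2 rose by 0.95 (95% interval 0.71 to 1.20, adjusted p = 8.7e-07) in mutants and 1.00 (95% interval 0.72 to 1.29, adjusted p = 3.88e-06) in wild type.

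Tapbp, tapasin, went the other way from the transporter it binds. It had 168, 147, 159.9 and 163 RPKM in the mutant HSC libraries, against 148, 155 and 162 RPKM in the wild-type ones. It had 140.5, 132, 138 and 148 RPKM in the mutant MPP4 libraries, against 142, 121 and 138 RPKM in the wild-type ones. It had 127, 114, 124 and 125 RPKM in the mutant CLP libraries, against 122, 129 and 129 RPKM in the wild-type ones. Genotypes overlapped in every population. Tapbp was lower in MPP4 than in HSC by -0.19 (95% interval -0.32 to -0.06, adjusted p = 0.0224) in mutants and -0.22 (95% interval -0.37 to -0.06, adjusted p = 0.0242) in wild type, and the wild-type call went to an adjusted p of 0.0533 without HSC library 2, 0.0854 without HSC library 3 and 0.151 without MPP4 library 2. The mutant call went to 0.069 and 0.0553 without HSC libraries 1 and 4, and to 0.0735 and 0.0502 without MPP4 libraries 2 and 3. Under median-ratio scaling both were lost (0.0823 in mutants and 0.0964 in wild type). From HSC to CLP Tapbp fell by -0.38 (95% interval -0.51 to -0.24, adjusted p = 3.89e-05) in mutants and -0.29 (95% interval -0.45 to -0.14, adjusted p = 0.0024) in wild type. The wild-type call over this span went to 0.0509 under median-ratio scaling. The mutant step from MPP4 to CLP, -0.19 (95% interval -0.32 to -0.05, adjusted p = 0.0373), was lost in 10 of 19 alternatives.

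Psmb8, the inducible chymotrypsin-like subunit, was the most abundant of the 3. It had 224, 244, 235 and 277 RPKM in the mutant HSC libraries, against 293, 285 and 305 RPKM in the wild-type ones. It had 337, 331, 363 and 385 RPKM in the mutant MPP4 libraries, against 516, 397 and 518 RPKM in the wild-type ones. It had 434, 487, 515 and 461 RPKM in the mutant CLP libraries, against 583, 444 and 559.9 RPKM in the wild-type ones. Mutants lay wholly below wild type in HSC and MPP4 and overlapped with it in CLP through wild-type library 2. Psmb8 rose from HSC to MPP4 by 0.53 (95% interval 0.32 to 0.74, adjusted p = 0.000245) in mutants and 0.69 (95% interval 0.44 to 0.93, adjusted p = 8.31e-05) in wild type. From MPP4 to CLP it rose by 0.42 (95% interval 0.21 to 0.63, adjusted p = 0.00361) in mutants, while the wild-type difference of 0.15 (95% interval -0.09 to 0.39, adjusted p = 0.484) did not pass. The span from HSC to CLP was 0.95 (95% interval 0.74 to 1.16, adjusted p = 7.83e-08) in mutants and 0.83 (95% interval 0.59 to 1.08, adjusted p = 4.48e-06) in wild type.

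Psmb9, the inducible subunit that replaces the caspase-like one, had 153, 174, 171 and 226 RPKM in the mutant HSC libraries, against 185, 196 and 213 RPKM in the wild-type ones. It had 207, 207, 231 and 265 RPKM in the mutant MPP4 libraries, against 276, 248 and 299 RPKM in the wild-type ones. It had 263, 271, 322 and 307 RPKM in the mutant CLP libraries, against 355, 278 and 338 RPKM in the wild-type ones. Genotypes overlapped in all 3 populations, and mutant library 4 was the highest mutant in HSC and MPP4. The rise from HSC to MPP4 was 0.34 (95% interval 0.10 to 0.58, adjusted p = 0.0253) in mutants and 0.47 (95% interval 0.19 to 0.75, adjusted p = 0.00793) in wild type. From MPP4 to CLP it was 0.36 (95% interval 0.12 to 0.60, adjusted p = 0.0278) in mutants, and 0.23 (95% interval -0.04 to 0.51, adjusted p = 0.304) in wild type, which did not pass. Both mutant calls are weak: the first was lost without HSC library 1, 2 or 3 or MPP4 library 3 or 4 (adjusted p of 0.0969, 0.0557, 0.0633, 0.0528 and 0.0995), and the second without MPP4 library 1 or 2 or CLP library 3 or 4 (0.0798, 0.082, 0.0887 and 0.0653). From HSC to CLP, Psmb9 rose by 0.69 (95% interval 0.45 to 0.93, adjusted p = 3.23e-05) in mutants and 0.70 (95% interval 0.43 to 0.98, adjusted p = 0.000167) in wild type.

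Psmb10, the inducible trypsin-like subunit, is the 1 inducible subunit outside the MHC and did not follow the other two. It had 97.9, 108, 97.1 and 105 RPKM in the mutant HSC libraries, against 99.9, 104 and 109 RPKM in the wild-type ones. It had 79.4, 89.4, 98.6 and 97.2 RPKM in the mutant MPP4 libraries, against 105, 93.6 and 95.7 RPKM in the wild-type ones. It had 74.6, 84.5, 82.8 and 82.5 RPKM in the mutant CLP libraries, against 90.4, 75.7 and 75.9 RPKM in the wild-type ones. Genotypes overlapped throughout, and CLP was the lowest population in both. Its difference between MPP4 and HSC did not pass and was -0.16 (95% interval -0.32 to -0.00, adjusted p = 0.101) in mutants and -0.09 (95% interval -0.27 to 0.10, adjusted p = 0.459) in wild type. Psmb10 fell from HSC to CLP by -0.33 (95% interval -0.49 to -0.17, adjusted p = 0.00113) in mutants and -0.37 (95% interval -0.56 to -0.18, adjusted p = 0.00161) in wild type. The wild-type step from MPP4 to CLP, -0.28 (95% interval -0.47 to -0.10, adjusted p = 0.0407), was lost without any of 5 single libraries, MPP4 1, 2 and 3 and CLP 2 and 3 (adjusted p of 0.18, 0.0577, 0.0708, 0.161 and 0.148), while the mutant step, -0.16 (95% interval -0.32 to -0.00, adjusted p = 0.134), did not pass and passed without MPP4 library 1 (0.0364).

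**Figure D2:**
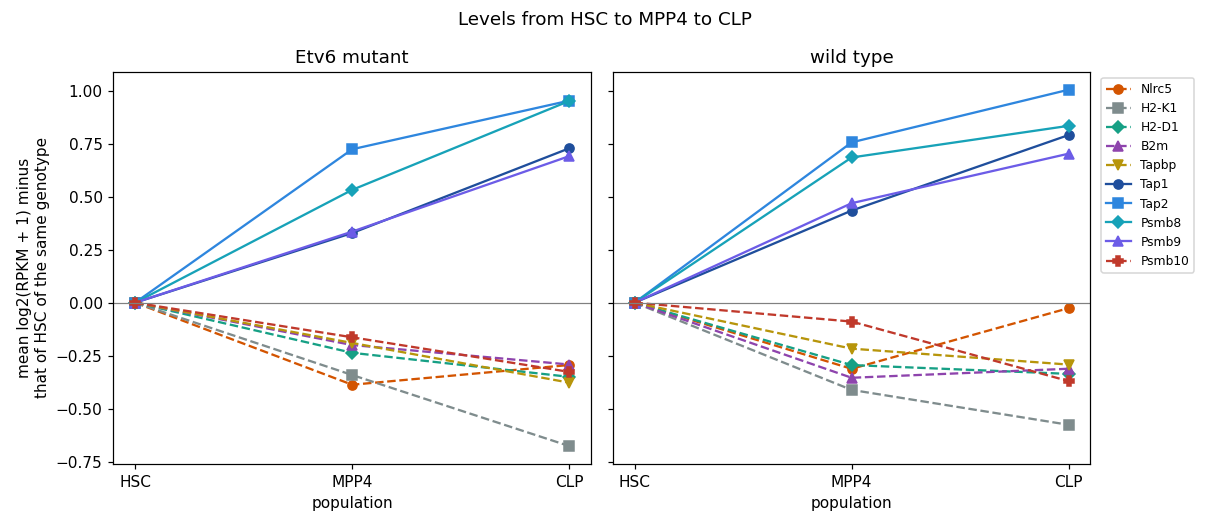
Mean log2(RPKM + 1) of each member in HSC, MPP4 and CLP minus its mean in HSC of the same genotype (vertical axis), mutant panel left of wild type; solid lines are Tap1, Tap2, Psmb8 and Psmb9, dashed lines the other 6 members. Solid lines end between 0.69 and 0.95 in mutants and between 0.70 and 1.00 in wild type, and dashed lines end below 0, Nlrc5 in wild type at -0.03, a value that turns positive under both other scalings.

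Set against all genes, the counts of the steps were as follows. From HSC to MPP4, 4 members were called higher and 4 lower in mutants, where 16% of genes were called higher and 23.1% lower, and 4 higher and 5 lower in wild type, where 16.1% were called higher and 23.3% lower. From MPP4 to CLP, 3 were called higher and 2 lower in mutants, where 7.86% of genes were called higher and 16.4% lower, and 1 higher and 1 lower in wild type, where 4.77% were called higher and 8.38% lower. From HSC to CLP, 4 were called higher and 6 lower in mutants, where 21.8% of genes were called higher and 36% lower, and 4 higher and 5 lower in wild type, where 19.4% were called higher and 31.7% lower. The median member differed by -0.29 in mutants and -0.16 in wild type over this span, against -0.11 in mutants and -0.10 in wild type for all genes. Without wild-type HSC library 2, 8 members were called from HSC to MPP4 in wild type and 9 from HSC to CLP. Without mutant MPP4 library 2, 7 were called from HSC to MPP4 in mutants, Tapbp being lost (adjusted p = 0.0735), 4 from MPP4 to CLP, Psmb9 being lost (adjusted p = 0.082), and 0 between genotypes in MPP4.

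Scaling between libraries changed the balance of these calls. Median-ratio scaling moved the median difference of all genes from HSC to CLP up by 0.11 in mutants and 0.10 in wild type, and quantile normalization by 0.13 in mutants and 0.12 in wild type. Relative to the median gene as deposited, mutant CLP differed from mutant HSC by 1.06 for Tap2, 1.06 for Psmb8, 0.84 for Tap1 and 0.80 for Psmb9, and by -0.57 for H2-K1, -0.24 for H2-D1, -0.22 for Psmb10, -0.27 for Tapbp, -0.18 for B2m and -0.18 for Nlrc5. Wild-type CLP differed from wild-type HSC on the same footing by 1.11 for Tap2, 0.94 for Psmb8, 0.89 for Tap1, 0.81 for Psmb9, -0.47 for H2-K1, -0.23 for H2-D1, -0.27 for Psmb10, -0.19 for Tapbp, -0.21 for B2m and 0.08 for Nlrc5. Under median-ratio scaling the members called from HSC to MPP4 were 4 higher and 3 lower in mutants and 4 higher and 2 lower in wild type, from MPP4 to CLP 3 higher and 1 lower in mutants and 1 higher and 0 lower in wild type, and from HSC to CLP 4 higher and 4 lower in mutants and 4 higher and 3 lower in wild type. Over all genes, 2093 were called higher and 2360 lower in mutants from HSC to MPP4, and 2179 and 2363 in wild type. From MPP4 to CLP these were 1324 and 1521 in mutants and 683 and 790 in wild type. From HSC to CLP they were 3305 and 3406 in mutants and 2857 and 3002 in wild type. Under quantile normalization the members called were 3 higher and 5 lower in mutants and 4 higher and 3 lower in wild type from HSC to MPP4, 3 higher and 4 lower in mutants and 1 higher and 1 lower in wild type from MPP4 to CLP, and 4 higher and 5 lower in mutants and 4 higher and 4 lower in wild type from HSC to CLP. Over all genes, 2178 were called higher and 2333 lower in mutants from HSC to MPP4, and 2217 and 2169 in wild type. From MPP4 to CLP these were 1051 and 1221 in mutants and 620 and 746 in wild type. From HSC to CLP they were 3179 and 3186 in mutants and 2919 and 2776 in wild type. Tap1, Tap2 and Psmb8 were called higher in MPP4 and CLP than in HSC, and H2-K1 and H2-D1 lower, in both genotypes under either scaling. Of all genes called from HSC to CLP, the share called higher was 37.7% in mutants and 37.9% in wild type as deposited, 49.2% in mutants and 48.8% in wild type under median-ratio scaling, and 49.9% in mutants and 51.3% in wild type under quantile normalization. From MPP4 to CLP it was 32.4% in mutants and 36.3% in wild type as deposited, and 45.4% to 46.5% under either scaling.

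Markers of other cell types moved with the populations. Megakaryocyte markers (6 of 6) summed to 5.07 to 14.7 RPKM in mutant CLP and 7.48 to 9.60 RPKM in wild-type CLP, against 527 to 540.3 RPKM in mutant HSC and 568 to 617 RPKM in wild-type HSC. Erythroid markers (5 of 7) summed to 22.5 to 93.2 RPKM in mutant CLP and 31.3 to 60.96 RPKM in wild-type CLP, against 821 to 963 RPKM in mutant HSC and 781 to 913 RPKM in wild-type HSC. Neutrophil granule markers summed to 732 to 2194 RPKM in mutant MPP4 and 575 to 1081 RPKM in wild-type MPP4, against 93.6 to 244 RPKM in mutant HSC and 163 to 1360.3 RPKM in wild-type HSC. Dendritic cell markers (7 of 9 in the table, none at 0 throughout) summed to 423 to 463 RPKM in mutant CLP and 335 to 561 RPKM in wild-type CLP, against 84.0 to 94.5 RPKM in mutant HSC and 84.6 to 112 RPKM in wild-type HSC. MHC class II chains (5 of 5) summed to 442 to 713 RPKM in mutant CLP and 373 to 674 RPKM in wild-type CLP, against 177 to 350 RPKM in mutant HSC and 249 to 364 RPKM in wild-type HSC. B-lineage markers (6 of 8, none at 0 throughout) summed to 78.8 to 262 RPKM in mutant CLP and 130 to 259.8 RPKM in wild-type CLP, against 36.3 to 50.8 RPKM over the HSC groups. Of 8 markers of T, NK and innate lymphoid cells 2 were in the table, and summed to 78.3 to 218 RPKM in mutant CLP and 121 to 151 RPKM in wild-type CLP, against 7.22 to 32.7 RPKM in mutant HSC and 20.04 to 47.6 RPKM in wild-type HSC. Of 6 endothelial and stromal markers 2 were in the table, Pecam1 and Kdr. They summed to 74.1 to 86.6 RPKM in mutant CLP and 79.6 to 85.6 RPKM in wild-type CLP, against 22.3 to 30.9 RPKM over the HSC groups. The 2 genes moved apart, since from mutant HSC to mutant CLP Pecam1 differed by 1.73 and Kdr by -1.40. Monocyte and macrophage markers (6 of 6) summed to 259.9 to 572 RPKM in mutant CLP and 282 to 370.1 RPKM in wild-type CLP, against 327 to 415 RPKM in mutant HSC and 380.5 to 593 RPKM in wild-type HSC, with overlap. Within that list Ly86, Csf1r, Ccr2 and Ms4a6c were called higher in mutant CLP than in mutant HSC. Lyz2 (-0.66) and Adgre1 (-0.13) were lower there and not called. Among the dendritic cell markers Zbtb46 alone was lower in mutant CLP, by -0.63. The part of these shifts in the rise of Tap1, Tap2, Psmb8 and Psmb9 and in the fall of H2-K1, H2-D1, B2m, Tapbp and Psmb10 was not tested.

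The 4 members that rose are the 4 of the 34.3 kb block, an arrangement seen after their values. The table holds 9 other genes within 100 kb of the block, most of them of MHC class II. Their mean RPKM in CLP was above that in HSC for 8 of the 9 in mutants and for 7 of the 9 in wild type. Of all genes tested, 59.1% in mutants and 58.4% in wild type had a negative log2 difference from HSC to CLP. These counts are described and not tested. Of the neighbours named next, H2-Ob and Brd2 were higher in CLP and H2-DMb1 was not. H2-Ob, which encodes a chain of the class II modulator DO, averaged 93.0 RPKM in mutant CLP and 111.7 RPKM in wild-type CLP, against 3.65 RPKM in mutant HSC and 4.89 RPKM in wild-type HSC. Brd2, a bromodomain gene, averaged 61.7 RPKM in mutant CLP and 66.6 RPKM in wild-type CLP, against 43.9 RPKM in mutant HSC and 45.9 RPKM in wild-type HSC. H2-DMb1, of the class II peptide exchanger, averaged 35.1 RPKM in mutant CLP and 34.0 RPKM in wild-type CLP, against 41.4 RPKM in mutant HSC and 47.8 RPKM in wild-type HSC.

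Between genotypes, differences of the members were small and mostly negative, and none was called. Members called numbered 0 in HSC, 0 in MPP4 and 0 in CLP by limma, against 0.0522%, 0.217% and 0% of all genes. At an unadjusted p under 0.05 there were 3 members in HSC (4.45% of genes), 4 in MPP4 (8.14%) and 5 in CLP (4.41%), every one of them with a negative difference. The difference was negative for 9 of 10 members in each population. Its median was -0.15 in HSC, -0.14 in MPP4 and -0.18 in CLP, against 0.01, 0.02 and 0.00 for all genes, of which 46.3%, 44.2% and 48.7% were negative. Under quantile normalization the negative members numbered 7 in HSC, 9 in MPP4 and 10 in CLP, with H2-K1 in HSC turning to 0.02.

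The transporter and Psmb8 were the members with the most negative differences in MPP4. Psmb8 differed by -0.42 (95% interval -0.65 to -0.20, adjusted p = 0.153) in MPP4, by -0.27 (95% interval -0.49 to -0.04, adjusted p = 0.977) in HSC and by -0.15 (95% interval -0.38 to 0.07, adjusted p = 1) in CLP. Tap1 differed by -0.37 (95% interval -0.59 to -0.14, adjusted p = 0.244) in MPP4, by -0.26 (95% interval -0.49 to -0.03, adjusted p = 0.99) in HSC and by -0.32 (95% interval -0.55 to -0.10, adjusted p = 0.934) in CLP. Psmb8 was called in MPP4 when libraries were weighted (adjusted p = 0.0369) and Tap1 when sex and age were terms (0.0323), and neither in the other alternatives, over which the adjusted p reached 0.749 for Psmb8 and 0.814 for Tap1. Tap2 differed by -0.27, -0.31 and -0.33 in HSC, MPP4 and CLP. The unadjusted intervals of these 3 genes lay below 0 in each population except for Psmb8 in CLP.

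For the heavy chains the point estimate was most negative in CLP, for H2-D1 only narrowly so against HSC. No member's genotype effect differed between populations at an unadjusted p under 0.05. In CLP, H2-K1 differed by -0.24 (95% interval -0.43 to -0.05, adjusted p = 0.934) and H2-D1 by -0.18 (95% interval -0.34 to -0.01, adjusted p = 1). Nlrc5 differed there by -0.36 (95% interval -0.58 to -0.13, adjusted p = 0.934), with 17.8 ± 1.52 RPKM in mutants and 23.04 ± 2.51 RPKM in wild type (SD, n = 4 and n = 3). B2m differed by -0.20 in HSC, -0.04 in MPP4 and -0.18 in CLP, and Psmb9 by -0.14 in HSC, -0.28 in MPP4 and -0.15 in CLP. Tapbp and Psmb10 were nearest to 0 over HSC, MPP4 and CLP, at 0.04, 0.06 and -0.05 for Tapbp and -0.03, -0.11 and 0.01 for Psmb10. Without wild-type HSC library 2, the HSC differences of Tap1, Tap2 and Psmb8 were -0.30, -0.32 and -0.29, and no member was called.

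**Figure D3:**
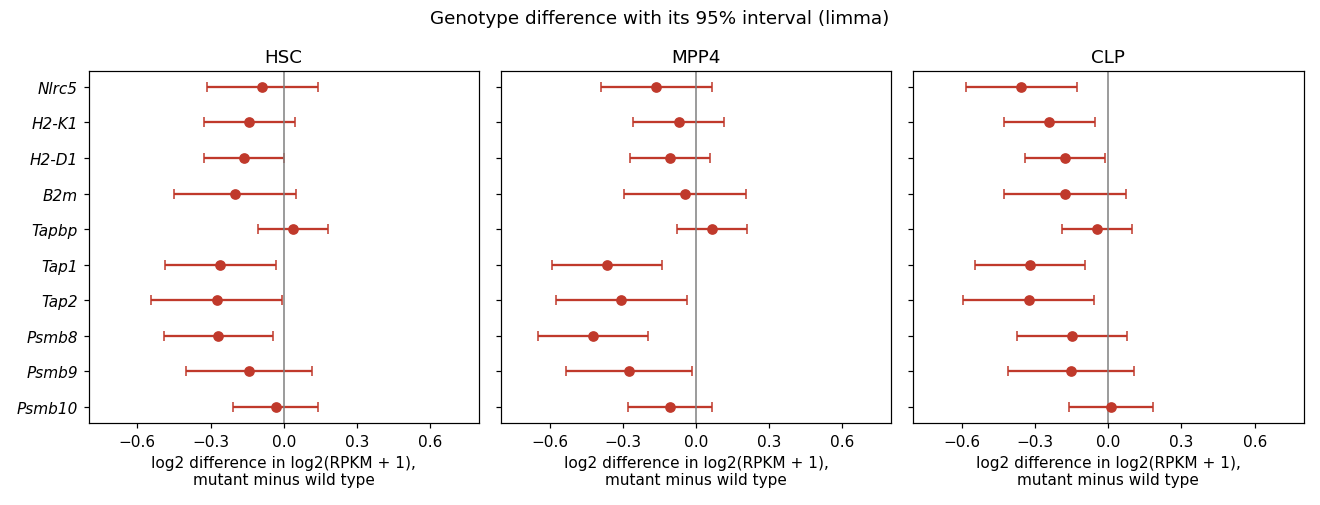
Difference of each member between mutant and wild type (horizontal axis, log2(RPKM + 1), mutant minus wild type) in HSC, MPP4 and CLP; points are limma estimates from 4 mutant and 3 wild-type libraries and bars their 95% intervals, unadjusted. Most points lie left of 0, Psmb8 in MPP4 at -0.42 being the farthest, and none passed the adjusted test; under quantile normalization H2-K1 and Psmb10 in HSC move just right of 0 and Psmb10 in CLP just left.

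Mutant libraries lay wholly below wild-type libraries for 2 members in HSC (Tap2 and Psmb8; 1.9% of genes), for 2 in MPP4 (Tap1 and Psmb8; 3.41%) and for 4 in CLP (Nlrc5, Tap1, H2-K1 and H2-D1; 2.18%). Averaged over the 3 populations for each library number of a genotype, 4 mutant values lay below all 3 wild-type values for 5 members, Nlrc5, Tap1, H2-K1, H2-D1 and Psmb8, and for 1.86% of genes. That average takes a number to be a mouse, although mutant number 4 is labelled 12 weeks in HSC and MPP4 and 10 weeks in CLP. In a limma fit to these averages Tap1 differed by -0.32 (95% interval -0.50 to -0.13, adjusted p = 0.653) and Psmb8 by -0.28 (-0.47 to -0.09, adjusted p = 0.8). No gene of 11496 was called in it, with 567 at an unadjusted p under 0.05.

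The genotype differences were also compared between populations. No member's genotype effect differed between populations at an unadjusted p under 0.05, where 3.79% of genes did for MPP4 against HSC, 3.84% for CLP against MPP4 and 3.65% for CLP against HSC, and limma called none of the members. The differences of the effects ran from -0.15 to 0.15 for MPP4 minus HSC, from -0.19 to 0.27 for CLP minus MPP4 and from -0.27 to 0.12 for CLP minus HSC.

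Marker sums differed between genotypes beside these values. In MPP4 the 5 genes listed for MPP4 summed to 1210 to 1362 RPKM in mutants and 1504 to 1821 RPKM in wild type. Of these, Cd48 and Dntt, which are not markers of the gate described above, were lower on average in mutants. Flt3, Kit and Ly6a did not share that fall. The 6 stem cell genes summed to 286 to 296 RPKM in mutants and 222 to 246 RPKM in wild type. Erythroid markers (5 of 7, none at 0 throughout) summed to 326 to 418 RPKM in mutants and 143 to 255 RPKM in wild type. In CLP, neutrophil granule markers summed to 239 to 1968 RPKM in mutants, with libraries 2 and 4 at 1648 and 1968 RPKM, and to 309.6 to 556 RPKM in wild type. In HSC, megakaryocyte markers (6 of 6) summed to 527 to 540.3 RPKM in mutants and 568 to 617 RPKM in wild type. The part of these shifts in the genotype differences was not tested.

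The share of each inducible subunit in its pair sets inducible against constitutive RNA within a library, and does not depend on scaling between libraries. Psmb8 made up 77.8% ± 0.749 of Psmb8 plus Psmb5 in mutant CLP and 80.5% ± 0.834 in wild-type CLP (SD, n = 4 and n = 3), with libraries at 77.1 to 78.5% against 79.5 to 81.2%. In MPP4 it made up 73.6% ± 2.03 in mutants and 77.6% ± 2.53 in wild type, and in HSC 68.3% ± 1.51 in mutants and 70.8% ± 0.993 in wild type. The CLP groups did not overlap, and the two-sided exact permutation p was 0.0286, the smallest that 35 splits of 7 libraries allow. In MPP4 and HSC p was 0.0857 by the same exact test.

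Psmb9 made up 62.4% ± 2.05 of Psmb9 plus Psmb6 in mutant CLP and 66.4% ± 0.643 in wild-type CLP, again without overlap (exact permutation p = 0.0286). In MPP4 the share was 57.2% ± 2.68 in mutants and 60.4% ± 2.22 in wild type, and in HSC 53.6% ± 2.78 in mutants and 54.0% ± 1.82 in wild type (exact permutation p of 0.143 and 0.857). Psmb10 made up 75.3% ± 0.75 of Psmb10 plus Psmb7 in mutant CLP and 75.3% ± 2.43 in wild-type CLP, 78.4% ± 1.22 in mutant MPP4 and 78.1% ± 2.34 in wild-type MPP4, and 81.5% ± 1.04 in mutant HSC and 81.7% ± 1.23 in wild-type HSC. Adjusted over the 9 shares, the lowest Benjamini-Hochberg p was 0.129, so no share passed. The CLP shares of Psmb8 and Psmb9 already stood at the smallest p of the exact test, 0.0286. Wider separation in these shares alone could therefore not have brought their adjusted p under 0.05. Shares of Psmb8 and Psmb9 were thus higher, and that of Psmb10 lower, at each later population in both genotypes, as described and not tested.

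**Figure D4:**
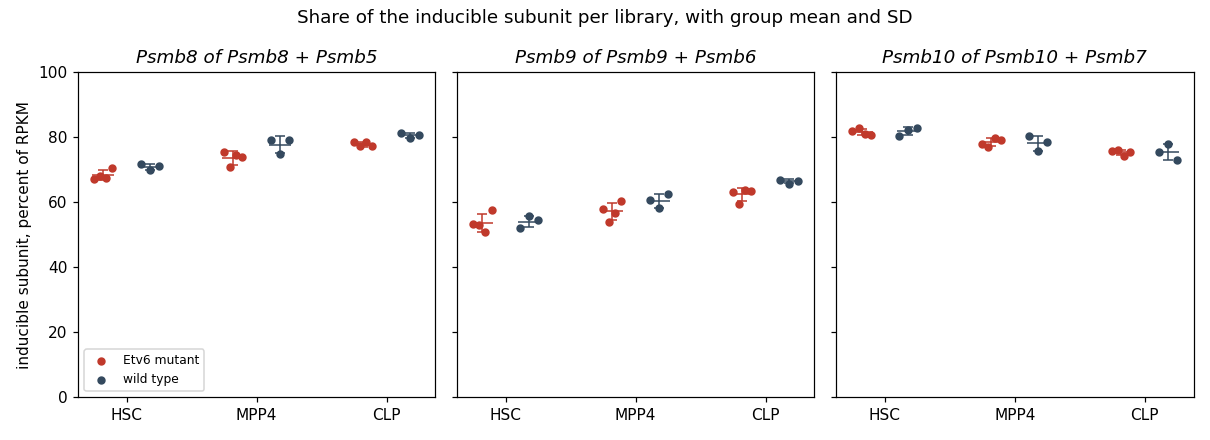
Inducible subunit as a percent of the RPKM of the inducible and the constitutive subunit of each pair (vertical axis, 0 to 100) by population, mutant (red) left of wild type (dark blue); points are libraries, and the mark and bar give the mean ± SD (n = 4 and n = 3). Psmb8 and Psmb9 shares step up from HSC to CLP, where mutants average 77.8% and 62.4% and wild type 80.5% and 66.4%.

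Of the constitutive subunits Psmb5, Psmb6 and Psmb7, limma called 0 of 3 between genotypes in any population, with 0 at an unadjusted p under 0.05, and 0 at either step, with 1 at an unadjusted p under 0.05, from HSC to MPP4 in wild type. Between HSC and CLP 1 of the 3 was called higher in mutants and 0 in wild type, where 21.8% and 19.4% of all genes were called higher. Among 6 genes of proteasome activators and immunoproteasome assembly, 2 were called higher and 1 lower from HSC to MPP4 in mutants, and 1 and 1 in wild type. Of all genes, 16% were called higher and 23.1% lower in mutants, and 16.1% higher and 23.3% lower in wild type. Psme2, a subunit of the PA28 activator that joins immunoproteasomes, rose by 0.28 (95% interval 0.11 to 0.44, adjusted p = 0.00788) in mutants and 0.37 (95% interval 0.18 to 0.56, adjusted p = 0.00286) in wild type. Psmf1, which encodes a proteasome inhibitor, fell by -0.40 (95% interval -0.57 to -0.23, adjusted p = 0.00048) in mutants and -0.47 (95% interval -0.66 to -0.27, adjusted p = 0.000443) in wild type. Between genotypes limma called 0 of the 6. Unadjusted p was under 0.05 for 0, 1 and 0 in HSC, MPP4 and CLP, against 4.45%, 8.14% and 4.41% of all genes.

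Other class I and class I-like chains were mostly lower after HSC. Of 28 listed, 15 were in the table; from HSC to MPP4, 9 of them were called lower and 0 higher in either genotype, where 23.1% of all genes were called lower in mutants and 23.3% in wild type, with a median of -0.55 in mutants and -0.67 in wild type, against -0.05 in mutants and -0.06 in wild type for all genes. In CLP against HSC, 11 were called lower and 1 higher in mutants, where 36% of all genes were called lower and 21.8% higher, and 10 lower and 0 higher in wild type, where 31.7% were called lower and 19.4% higher. Fcgrt, the neonatal Fc receptor chain, fell in MPP4 by -1.27 (95% interval -1.88 to -0.66, adjusted p = 0.00154) in mutants and -1.79 (95% interval -2.49 to -1.08, adjusted p = 0.000266) in wild type. H2-Q7, a Qa-2 gene, averaged 176 RPKM in mutant MPP4 and 200.3 RPKM in wild-type MPP4, against 277 RPKM in mutant HSC and 330.4 RPKM in wild-type HSC, a difference of -0.65 in mutants and -0.72 in wild type. These genes are close copies of one another, so reads may have been split between them. Between genotypes limma called 0 in any population, with 0, 2 and 7 at an unadjusted p under 0.05 in HSC, MPP4 and CLP. Of all genes, 4.45%, 8.14% and 4.41% reached that p. Of those 7, 6 had a negative difference, and Cd1d1, which encodes a lipid-presenting chain, had 0.28 (95% interval 0.01 to 0.54, adjusted p = 1). The median in CLP was -0.23, with H2-Q7 at -0.50 (95% interval -0.80 to -0.20, adjusted p = 0.839) and H2-Q8, another Qa-2 gene, at -0.59 (95% interval -0.95 to -0.24, adjusted p = 0.839).

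Peptide loading and trimming genes were all in the table, 13 of 13. From HSC to MPP4 2 were called lower and 0 higher in mutants, where 23.1% of all genes were called lower and 16% higher, and 1 lower and 0 higher in wild type, where 23.3% were called lower and 16.1% higher, with the aminopeptidase gene Npepps lower in both, by -0.33 (95% interval -0.54 to -0.12, adjusted p = 0.0141) in mutants and -0.31 (95% interval -0.55 to -0.06, adjusted p = 0.0428) in wild type. Between genotypes limma called 0 of the 13. Unadjusted p was under 0.05 for 1, 4 and 0 in HSC, MPP4 and CLP, against 4.45%, 8.14% and 4.41% of all genes. The gene with the smallest p in MPP4 was Pdia3, of the loading complex, at -0.28 (95% interval -0.48 to -0.08, adjusted p = 0.327).

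Of 24 regulators of class I transcription, 7 were called higher and 3 lower from HSC to MPP4 in mutants, and 6 higher and 6 lower in wild type, against shares of all genes of 16% higher and 23.1% lower in mutants and 16.1% higher and 23.3% lower in wild type. Irf8, an interferon regulatory factor of myeloid and B cells, rose by 3.69 (95% interval 3.40 to 3.99, adjusted p = 4.93e-14) in mutants and 3.95 (95% interval 3.61 to 4.28, adjusted p = 2.61e-13) in wild type, and Ezh2, a catalytic subunit of Polycomb repressive complex 2, by 0.87 in mutants and 0.85 in wild type. Rfx5, part of the complex with which NLRC5 binds class I promoters, fell by -0.24 (95% interval -0.43 to -0.05, adjusted p = 0.0444) in mutants and -0.55 (95% interval -0.77 to -0.32, adjusted p = 0.000386) in wild type. Other RFX and NF-Y genes of the list did not all follow. In mutants Rfxap was called lower (-0.33) and Nfyb higher (0.50), while Rfxank, Nfya and Nfyc were not called. Between genotypes 1 of the 24 was called in MPP4, where 0.217% of all genes were called. This was Irf8, which averaged 28.2 ± 4.89 RPKM in mutants and 48.8 ± 2.46 RPKM in wild type (SD, n = 4 and n = 3), a difference of -0.79 (95% interval -1.10 to -0.47, adjusted p = 0.0364). In HSC 0 were called, with 3 at an unadjusted p under 0.05, and in CLP 0, with 0. Of all genes, 4.45% reached that p in HSC and 4.41% in CLP. A further list held 9 genes, of interferon receptors, their kinases and the signalling suppressors Socs1 and Socs3. From HSC to MPP4, 3 of the 9 were called higher and 3 lower in both genotypes, against the same shares of all genes as above. In mutants Socs1 was among the lower genes, at -0.60 (95% interval -1.07 to -0.14, adjusted p = 0.0354). Ifnar2, a chain of the type I interferon receptor, rose by 1.11 in mutants and 1.22 in wild type, while the kinase gene Jak1 fell by -0.36 in mutants and -0.56 in wild type. Between genotypes limma called 0 of the 9. Unadjusted p was under 0.05 for 0, 0 and 1 in HSC, MPP4 and CLP, against 4.45%, 8.14% and 4.41% of all genes. That 1 was the suppressor gene Socs3, at -0.84 (95% interval -1.43 to -0.25, adjusted p = 0.934), and not a receptor or kinase.

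The genes whose group means most resembled a member's were sought for Nlrc5 and H2-K1 among 8893 genes, as the root mean square difference of centred log2(RPKM + 1) over the 6 groups. For Nlrc5 these were Sigirr (0.048), Tmem110 (0.066) and Fam206a (0.067), and for H2-K1 they were Slc25a20 (0.038), Nicn1 (0.045) and Trp53i13 (0.046). Among the members, Nlrc5 had distances of 0.11 to B2m, 0.13 to H2-D1, 0.18 to Tapbp, 0.20 to Psmb10, 0.22 to H2-K1, 0.39 to Psmb9, 0.40 to Tap1, 0.49 to Psmb8 and 0.53 to Tap2. H2-K1 had distances of 0.12 to H2-D1, 0.14 to B2m, 0.15 to Tapbp and to Psmb10, and 0.55 to 0.68 to Psmb9, Tap1, Psmb8 and Tap2. Sigirr, which encodes a receptor that dampens interleukin-1 signalling, averaged 34.7 RPKM in mutant MPP4 and 36.6 RPKM in wild-type MPP4, and 47.9 RPKM in mutant HSC and 47.1 RPKM in wild-type HSC. The groups share libraries and the values are a description with no test.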

How the data were processed

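RNA from sorted HSC, MPP4 and CLP was turned into cDNA with SMART-seq v4 and into libraries with NexteraXT, per the labels' protocols. The authors deposited 1 table of RPKM values (reads scaled to gene length and library size) for 11628 genes in 21 libraries. The submitters' processing notes name STAR and the build mm10; for the counting tool, annotation and strand setting nothing is given in the labels or file header. Depth per library is unknown and no counts were recovered, so precision rests on the replicates. A set of 16 symbols turned into dates by a spreadsheet was restored through Entrez IDs, of which 11619 matched RefSeq.

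Values were taken as log2(RPKM + 1). Genes reaching 1 RPKM in at least 3 libraries were kept (11496 kept, 132 left out). limma 3.58.1 in R 4.3.3, with a variance trend, fitted 6 group means to all 21 libraries (15 residual degrees of freedom), and Benjamini-Hochberg adjustment ran over all kept genes in each comparison. Genes were called at an adjusted p under 0.05. Inducible shares were compared with two-sided exact permutation tests of the difference in means. The limma fit was tested on simulated data.

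The members and gene lists were chosen with earlier results of these data known. All members are named; of each other list, genes called in a comparison, at most the 6 with the largest change, or the 1 with the smallest p where none was called, could be named, and those given are a selection of these; values of H2-Q7 and H2-Q8, the genes beside the block and the marker sums stand outside that rule and were chosen after their values were seen. Alternatives covered the pseudocount, the low-value filter, scaling, library weights, sex and age terms, the replicate number, the libraries fitted and leaving out each library. Fits to female or 12-week libraries alone, and to averages over populations, were chosen after seeing the data. Upstream sequences and gene positions came from RefSeq for GRCm38.p6, and shared 50-base windows from GENCODE M21 transcripts.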

Additional observations from a re-analysis of the deposited data

Results flagged for a closer look

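Among 81 sets of 4 mutant libraries (members, inducible shares, class I ratios and marker sums), the highest or lowest library stood apart from the others by Dixon's test in 7, where chance gives about 1 in 20; none of the 7 was among the 30 sets of member levels. The Psmb9 share of Psmb9 plus Psmb6 was 59.3% in mutant CLP library 2, against 63.0 to 63.7% in the other mutant CLP libraries, and without it the share differed from wild type by -2.97 points in place of -3.98. B2m per unit of the summed heavy chains was 1.51 in mutant CLP library 3, against 1.20 to 1.24 in the others. Dendritic cell markers summed to 202.9 RPKM in mutant MPP4 library 3, against 143 to 153 RPKM in the others, and to 463 RPKM in mutant CLP library 1, against 423 to 427 RPKM. MHC class II chains summed to 713 RPKM in mutant CLP library 4, against 442 to 463 RPKM in the others. Neutrophil granule markers summed to 2194 RPKM in mutant MPP4 library 2, against 732 to 954 RPKM in the others. Megakaryocyte markers summed to 219 RPKM in mutant MPP4 library 1, against 51.3 to 65.2 RPKM in the others. In wild-type MPP4, which was not put to this test, they ran from 25.8 to 195.9 RPKM with a median of 32.2 RPKM. A high library was thus present in both genotypes.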

How the results depend on the processing

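With 4 against 3 libraries the exact test cannot go below 0.0286. Counts of members called changed by over 1.5 times in these cases; the cause was not tested, beyond the smaller number of libraries in the restricted fits. Between genotypes in MPP4, 1 was called with library weights and 1 with sex and age terms, against 0. From HSC to MPP4 in wild type, 5 were called when the 2 groups alone were fitted and 2 in 12-week libraries, against 9; in mutants 4 in 12-week libraries, against 8. From MPP4 to CLP in wild type, 1 was called under median-ratio scaling, 0 when the 2 groups alone were fitted, 0 in female libraries, 0 in 12-week libraries and 0 to 1 without single libraries, against 2; in mutants 3 in female libraries, 1 in 12-week libraries and 3 to 5 without single libraries, against 5. From HSC to CLP in wild type, 5 were called in 12-week libraries, against 9. The shares of all genes called in the fits with fewer libraries are not given here, so these counts describe the members alone. Differences that changed sign were called neither before nor after the change. Under quantile normalization these were H2-K1 (0.0211) and Psmb10 (0.00806) in HSC, Psmb10 in CLP (-0.00686) and Nlrc5 between CLP and HSC in wild type (0.00903). With library weights they were Nlrc5 in HSC (0.0340), Psmb10 in CLP (-0.00498) and Nlrc5 between CLP and HSC in wild type (0.0366). Under median-ratio scaling they were H2-D1 between CLP and MPP4 (0.0146) and Nlrc5 between CLP and HSC (0.0819), both in wild type. In female libraries they were Tapbp in CLP (0.0014), Psmb10 in CLP (-0.0525) and B2m between CLP and MPP4 in wild type (-0.104); in 12-week libraries Psmb10 in HSC (0.0248), B2m in MPP4 (0.00869), Psmb10 in CLP (-0.0587) and Nlrc5 between CLP and HSC in wild type (0.116). Without single libraries, genotype differences ran from -0.063 to 0.00204 for Psmb10 in HSC, from -0.00317 to 0.108 for Tapbp in MPP4 and from -0.0323 to 0.0944 for Psmb10 in CLP. Wild-type differences ran from -0.0459 to 0.105 for B2m and from -0.083 to 0.0131 for H2-D1 between CLP and MPP4, and from -0.111 to 0.0502 for Nlrc5 between CLP and HSC. Share differences, mutant minus wild type in percentage points, ran from -1.70 to 0.492 for Psmb9 in HSC, from -0.846 to 0.355 for Psmb10 in HSC, from -0.914 to 1.42 for Psmb10 in MPP4 and from -1.29 to 1.13 for Psmb10 in CLP, where medians gave 0.0194. Of values of single members under alternatives, 1473 kept their direction and side of the threshold, 110 lost a call, 10 gained one and 27 changed sign.

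Same-numbered libraries of 2 populations of 1 genotype deviated together (correlations of 0.094 to 0.481, 19 of 21 over 0.1, and 18 of 21 libraries correlated best with their own number), which is a hint from the data; differently numbered ones had 7 of 54 over 0.1. Same-numbered libraries of mutant and wild type had correlations of -0.155 to 0.453 (median 0.145, 5 of 9 over 0.1), against a median of -0.0575 and 7 of 27 over 0.1 for different numbers, so not every pair was over 0.1 and the numbers were not taken to pair genotypes. With the replicate number as a block, 0 members were called between genotypes in HSC, 0 in MPP4 and 0 in CLP, Psmb10 in CLP turned to -0.00716, and the paired Psmb10 share in HSC to 0.201 points. With number and genotype together as a block, 3 were called from MPP4 to CLP in wild type and 6 in mutants, Tap2 being the member gained in each.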
